A study of Drosophila melanogaster with 23 samples.

Results

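LaminB knockdown (LaminB KD) was set against mock treatment for nascent transcription across all genes of Kc167 cells, a line derived from female Drosophila embryos. The comparison holds the 3 LaminB KD and the 3 mock libraries of experiment 1, chosen by their labels, 6 of the 23 libraries of the series. LaminB was depleted with double-stranded RNA (dsRNA), and mock cells were transfected with no RNA. Both groups were fed 0.2 mM 5-ethynyl uridine (EU) for 1 h, and the RNA that took it up was captured and sequenced (neuRNA-seq). The mock cells received no dsRNA, so an effect of dsRNA itself and an effect of LaminB loss cannot be told apart, and in a bulk sample fewer cells of a type and less RNA per cell cannot be told apart either. Of 17659 genes counted, 8142 passed the expression filter and were tested.

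The nuclear lamina is a meshwork of lamin filaments under the inner nuclear membrane. Flies have a B-type lamin, LaminB, encoded by Lam and made in nearly all cells, and an A-type lamin, LamC. Large stretches of mostly silent chromatin lie against this meshwork as lamina-associated domains, and lamins bind membrane proteins that carry LEM domains and link the nucleus to the cytoskeleton. The comparison asked which genes are transcribed differently once LaminB is depleted.

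Libraries held 8330072 to 9052633 counted reads in LaminB KD and 9165828 to 12982948 in mock. Genes with at least 1 read numbered 8935, 9813 and 9999 in LaminB KD, and 10595, 9214 and 9360 in mock, so that LaminB KD replicate 1 had the fewest and mock replicate 1, also the deepest, the most. Levels are in CPM, scaled to the TMM library size, and a gene was called at an adjusted p under 0.1 in edgeR's quasi-likelihood test, from which all adjusted p-values below come (Benjamini-Hochberg over all 8142 genes, or 8377 for the comparison with Dcr-2 KD). The size of a rise or fall is on the log2 scale. The cell line matched its label in part. The male-specific lncRNA:roX1 had 26 reads over the 3 LaminB KD libraries and 21 over the mock libraries. Sxl, the female switch gene, averaged 1206 CPM in LaminB KD, against 1013 CPM in mock. Counts over the whole gene do not tell its spliced forms apart, so this level does not show the sex of the line. Of 18 listed haemocyte genes, Hml had 1803 to 1869 CPM in LaminB KD, against 1536 to 1785 CPM in mock. srp, ush, Pvr and Pxn averaged 2252, 2559, 2076 and 1001 CPM in LaminB KD, against 2028, 2062, 2014 and 1029 CPM in mock. In contrast, 4 of the 18 (NimC2, NimC4, PPO1 and gcm) had no read in either group, and NimC1 had 0 reads in LaminB KD and 2 in mock. The fat body storage protein gene Lsp2 had 0 reads in LaminB KD and 8 in mock.

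Lam itself (FBgn0002525; dm6, 2L from 5542480 to 5546642) had 101, 131 and 109 CPM in LaminB KD, against 357, 349 and 349 CPM in mock. All 3 knockdown libraries lay far below the lowest mock library. Lam averaged 114 ± 15.4 CPM in LaminB KD, against 351 ± 4.46 CPM in mock (SD over 3 libraries each). The log2 fold change was -1.63, with an SE of 0.0891 (edgeR adjusted p 4.12e-09). RpL32, a ribosomal protein gene often used as a reference, had 143, 115.0 and 113 CPM in LaminB KD, against 149, 168 and 129.6 CPM in mock. Its groups overlapped and it was not called (log2 fold change -0.27, SE 0.169, edgeR adjusted p 0.276).

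Genes called in either direction made up 29.2% of those tested. Up-regulated genes numbered 1356 (16.7%) and down-regulated genes 1018 (12.5%), so 57.1% of calls were up. The sizes of change differed between the directions, with a median log2 fold change of 0.58 among genes that rose and -0.38 among genes that fell, against -0.0049 over all genes tested. Changes of more than 2-fold were found for 433 genes that rose and 41 that fell, and changes of more than 4-fold for 156 and 12 in the same order. The LaminB KD and mock libraries did not overlap for 1273 of the genes called up and 947 of those called down. Over all 8142 genes tested, called or not, they did not overlap for 3028 (37.2%). Calls and lack of overlap come from the same libraries, so these counts are no separate support for the calls. The balance of directions depended on scaling: with total counts as library sizes, which moved the median of all genes to -0.053, 1201 genes rose and 1434 fell, which makes 45.6% of calls up.

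**Figure D1:**
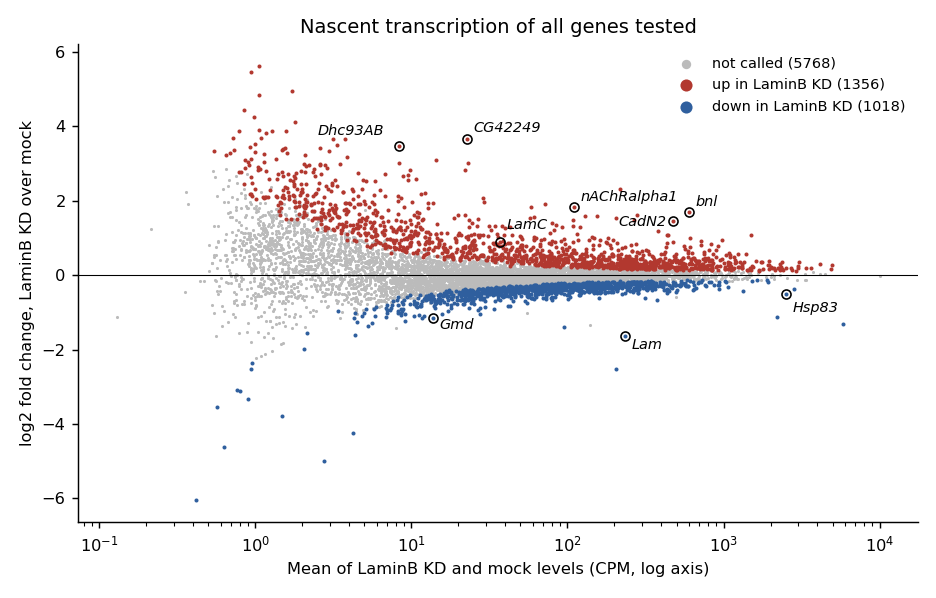
Log2 fold change of LaminB KD over mock (y axis) against the mean level of each gene in CPM over the 6 libraries (x axis, log scale), 1 point for each of the 8142 genes tested, with genes called up and down in colour. Genes that rose by more than 2-fold (433) outnumber those that fell by more than 2-fold (41), and Lam lies at -1.63 with a mean of 233 CPM.

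Long genes were more often called up and short genes more often called down. When genes were divided into 5 equal bins by length, the share called up was 5.79%, 6.98%, 9.10%, 15.6% and 45.4% with increasing length, and the share called down was 13.3%, 16.3%, 17.3%, 12.7% and 2.87%. Genes called up had a median length of 11050 bases and genes called down one of 2316 bases, beside 2859 bases over all genes tested. Over 5 bins of increasing GC content of the gene, the share called up was 30.4%, 24.9%, 12.6%, 9.23% and 5.67%, whereas the share called down was 5.61%, 7.86%, 11.4%, 15.9% and 21.7%. Reads were counted over whole gene bodies, so introns add to the counts of long genes. With offsets that removed each library's trend on length and GC content, 917 genes were up and 945 down, and of these 839 and 570 were also called without the offsets. The part of length and GC content in the changes was not tested beyond this. By level, the highest of 5 bins had the most calls up (29.8%), and the lowest bin had the fewest calls down (1.53%). Noncoding RNA genes were called up in 23.2% and down in 1.22% of 328 cases, and genes on the small chromosome 4 were called up in 21.6% and down in 4.05% of 74 cases. The large arms ranged from 15.9% (X and 3L) to 17.4% (2L) called up.

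**Figure D2:**
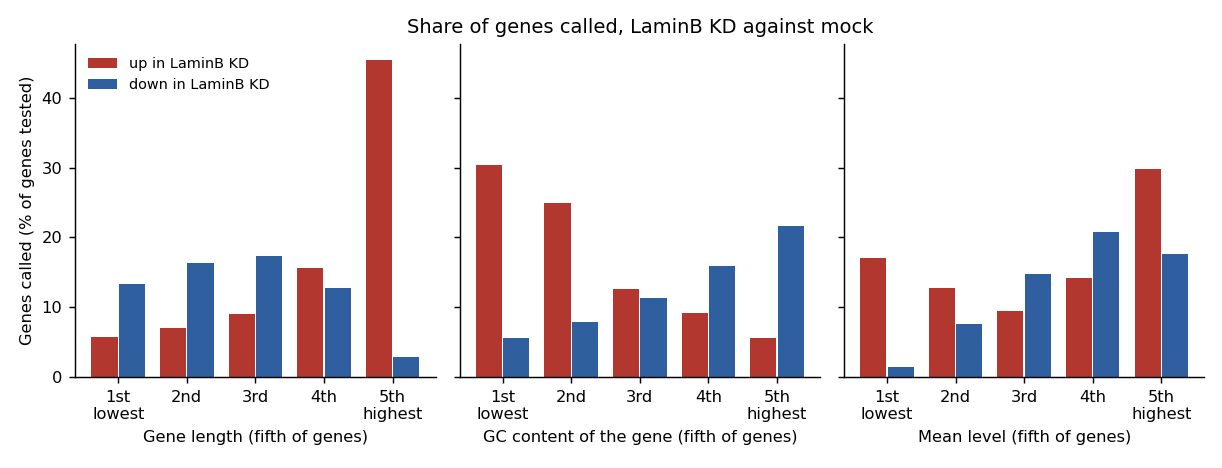
Percent of genes tested that were called up and called down in LaminB KD against mock (y axis), by 5 equal bins of gene length, of GC content and of mean level (x axis, lowest to highest). In the bin of the longest genes 45.4% of genes were up and 2.87% down, and the shares run the other way with GC content.

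Among called genes whose groups did not overlap and that averaged 5 CPM or more, the 10 largest rises were of genes that stood at a few CPM in mock. CG42249, of unknown function, had 46.2, 41.9 and 37.2 CPM in LaminB KD, against 3.02, 4.65 and 2.34 CPM in mock (log2 fold change 3.65, SE 0.671, edgeR adjusted p 0.00112). It overlaps a transposon on its strand, so its reads may not all be its own. Dhc93AB, which encodes a dynein heavy chain of the motile axoneme, had 22.1, 12.2 and 12.0 CPM in LaminB KD, against 2.04, 1.27 and 0.713 CPM in mock (log2 fold change 3.48, SE 0.428, edgeR adjusted p 2.95e-05). nAChRalpha3, a subunit of the nicotinic acetylcholine receptor, had 34.5, 43.2 and 44.7 CPM in LaminB KD, against 5.51, 6.55 and 3.06 CPM in mock (log2 fold change 3.01, SE 0.236, edgeR adjusted p 2.61e-07). For these genes each LaminB KD library was several fold above each mock library. Ance-3 and Ance-2, relatives of angiotensin converting enzyme, rose by 3.01 and 2.71. Ance-2 had 11.4, 12.7 and 11.2 CPM in LaminB KD, against 2.56, 2.32 and 0.408 CPM in mock. CG30485 and CG30484, of unknown function, rose by 3.10 and 2.82 (3.73 for CG30485 without mock replicate 1), with a highest mock library of 4.83 CPM for CG30485 and 6.56 CPM for CG30484. Or19b, an odorant receptor gene with a near-identical copy, Or19a, had 34.3, 7.38 and 9.65 CPM in LaminB KD, against 1.81, 4.01 and 1.53 CPM in mock (log2 fold change 2.82, SE 0.632, edgeR adjusted p 0.00494). Replicate 1 of LaminB KD stood apart, the log2 fold change was 1.81 without it, and reads of the copies may be left uncounted or misassigned. lncRNA:CR44471 (2.69) and cocoon (2.66) completed the set.

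The 10 largest falls chosen in the same way were smaller. Besides Lam, they included 3 pseudogenes of ribosomal RNA. 18SrRNA-Psi:CR41602 had 3806, 1601 and 4616 CPM in LaminB KD, against 10408, 7977 and 6422 CPM in mock (log2 fold change -1.31, SE 0.332, edgeR adjusted p 0.0109). Its libraries varied more within a group than those of most genes, and reads of ribosomal RNA repeats cannot be assigned to 1 copy. Gmd, the enzyme that opens the synthesis of GDP-fucose, had 9.74, 7.63 and 8.19 CPM in LaminB KD, against 17, 21 and 18.7 CPM in mock (log2 fold change -1.15, SE 0.202, edgeR adjusted p 0.000763). mRpL23, of the mitochondrial ribosome, fell by 1.23 and cerv, a subunit of the Smc5/6 complex, fell by 1.12. CG31360 (-1.36), CG3032 (-1.14) and CG17059 (-1.29), of which no function is given here, had levels of at most 10.1 CPM in LaminB KD, and CG17059 was not called without mock replicate 2 (edgeR adjusted p 0.125). The rRNA pseudogenes 28SrRNA-Psi:CR45860 (-1.38, or -0.84 with an edgeR adjusted p of 0.0776 without mock replicate 3) and 28SrRNA-Psi:CR45859 (-1.12, or -1.70 without LaminB KD replicate 1) completed the set. A larger fitted fall, of CG12535 (-2.53), came from 1 mock library, with 61.7, 50.6 and 67.6 CPM in LaminB KD, against 45.1, 50.8 and 949 CPM in mock. Its groups overlapped, and without mock replicate 3 the log2 fold change was 0.31 (edgeR adjusted p 0.683). It was named after its values were seen. Over the 10 genes of ribosomal RNA and its pseudogenes that were tested, 0 rose and 5 fell, and the summed level of the family was 4075 to 7388 CPM in LaminB KD, against 10732 to 16359 CPM in mock.

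**Figure D3:**
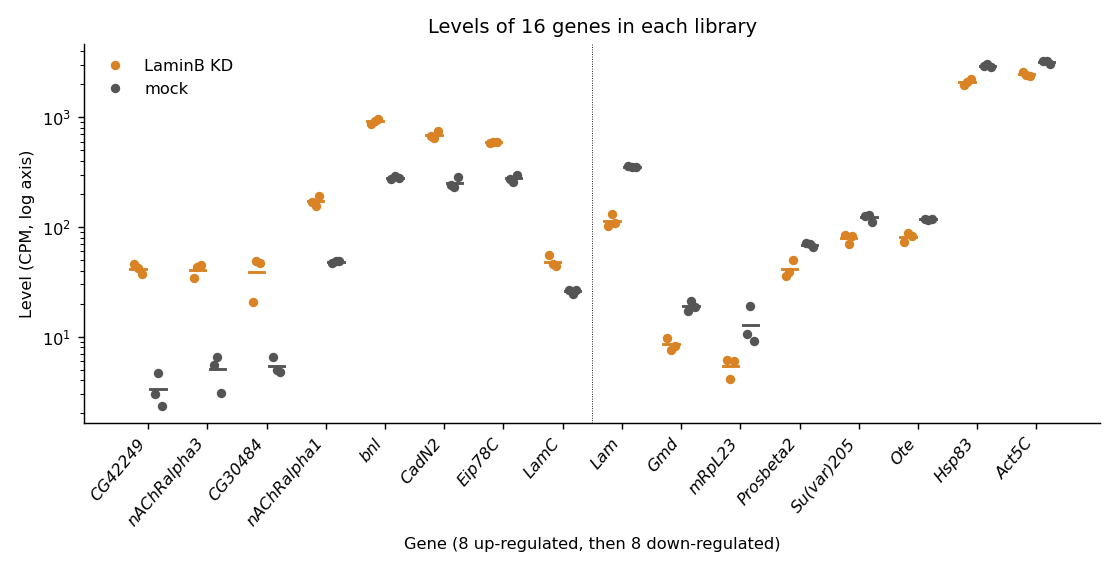
Level in CPM (log scale) of genes the text describes, 1 point per library, with the 3 LaminB KD libraries left of the 3 mock libraries for each gene and a bar at each group mean. Lam is lower in every LaminB KD library (101 to 131 CPM) than in mock (349 to 357 CPM), and bnl is higher (869 to 971 CPM in LaminB KD, 275 to 289 CPM in mock).

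Promoters were searched for short motifs in genes that rose and genes that fell. The 8-base DNA replication-related element (TATCGATA, its own reverse complement), which is common at housekeeping promoters of the fly, was found between 250 bases before and 50 bases after the start of 8.35% of genes called up, 18.2% of genes called down and 14.3% of genes tested with a promoter, beside 7.59% of all 17464 promoters. GAGAG on either strand, the letters that the GAGA factor binds, was found in 38.8% of genes called up, 22.9% of genes called down, 28.8% of genes tested and 29.4% of all promoters. The letters TATAAA (41.1% of genes up, 46.3% of genes down) and TCAGT of the initiator (51.8% of genes up, 46.1% of genes down), both also searched on either strand, differed less. A match is a description, not a site. To show what these matches look like, windows of 30 bases from RefSeq promoters (Release 6, dm6) are given for genes described here, 5′ to 3′ on the strand of the gene, with the matched letters, or CTCTC for GAGAG on the other strand, in capitals. The first 5 are from genes that fell and the last 3 from genes that rose:
Lam, chr2L:5542329-5542358, plus strand: tatcgttaagtTATCGATAgttgtgcacaa
Gmd, chr2L:4977024-4977053, minus strand: tgcttcgattgcgatgTATCGATAaccaat
Prosbeta2, chr3L:14999921-14999950, plus strand: tagttgagtccatgaatataTATCGATAca
Hsp83, chr3L:3192776-3192805, plus strand: aactctggaaaTATCGATAgtctggtggag
U2af38, chr2L:294691-294720, minus strand: aaaacactaaaTATCGATAactaatcatcg
bnl, chr3R:19836971-19837000, minus strand: actacttgCTCTCaCTCTCTCcgtctccct
nAChRalpha1, chr3R:24457367-24457396, minus strand: cctgccactcgaaGAGAGcgagaaaggtcc
Or19b, chrX:20094357-20094386, plus strand: aggtcggaacgcgGAGAGctgcttcaaaga

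At the nuclear envelope, genes were called in both directions, with the A-type lamin gene among those that rose. Of 12 genes of the lamina and inner envelope, 3 rose, 4 fell and 5 were not called (median log2 fold change -0.051). The counts of this and all later lists stand beside 16.7% called up and 12.5% called down over all genes tested. LamC had 55.1, 45.9 and 44.3 CPM in LaminB KD, against 26.9, 24.6 and 26.4 CPM in mock (log2 fold change 0.90, SE 0.132, edgeR adjusted p 0.000163). This rise was not particular to LaminB KD, since LamC also rose in the AGO2 and Dcr-2 knockdowns of the series (0.56 and 0.42, edgeR adjusted p 0.0135 and 0.0621). Ote, which encodes the LEM-domain protein Otefin, had 73.3, 87.3 and 82.8 CPM in LaminB KD, against 118, 115 and 119 CPM in mock (log2 fold change -0.53, SE 0.0872, edgeR adjusted p 0.000435). Neither gene had overlapping libraries. A further LEM-domain gene, bocks, rose by 0.48. kuk, whose product is a farnesylated protein of the nuclear envelope, had 145, 155 and 136 CPM in LaminB KD, against 196, 208 and 207 CPM in mock, a log2 fold change of -0.49. LBR, the lamin B receptor, fell by 0.24. klar, a KASH-domain protein that links nuclei to microtubule motors, had 974, 978 and 1018 CPM in LaminB KD, against 818, 817 and 881 CPM in mock (log2 fold change 0.24), but turned to -0.21 with length and GC offsets. MAN1, koi (a SUN-domain protein), Msp300 (a nesprin), baf (barrier-to-autointegration factor) and Torsin were not called, with log2 fold changes between -0.32 (Torsin) and -0.02 (Msp300).

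Genes of the nuclear pore and of chromatin insulators were called down and never up. Of 28 nuclear pore genes, 9 fell and 19 were not called (median -0.17), with Nup43 (-0.68) and Nup35 (-0.62) the largest falls. Nup35 had 51.8, 47.3 and 40.8 CPM in LaminB KD, against 72.7, 69.9 and 72.0 CPM in mock. Insulator proteins bind DNA or one another at domain borders, and 10 of 16 fell (median -0.28), 8 with length and GC offsets. By the size of the fall Ibf1 (-0.52) and M1BP (-0.52) were named. Neither call held for every library left out, with edgeR adjusted p-values of up to 0.203 for Ibf1 (without mock replicate 2, also lost without mock replicate 3 or LaminB KD replicate 1) and up to 0.133 for M1BP (without mock replicate 1, also lost without LaminB KD replicate 1 or 3). The core insulator proteins, named after their values were seen, also fell, with log2 fold changes of -0.39 for CTCF, -0.31 for su(Hw), -0.25 for Cp190 and -0.39 for mod(mdg4). CTCF had 81.8, 78.8 and 81.8 CPM in LaminB KD, against 105, 103 and 111 CPM in mock, and Cp190 had 508, 531 and 515 CPM in LaminB KD, against 614, 612 and 621 CPM in mock. The groups did not overlap for either gene. The call of su(Hw) was lost without LaminB KD replicate 2, mock replicate 1 or mock replicate 3 (edgeR adjusted p 0.107 to 0.131).

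Among other chromatin genes, changes ran in both directions. Of 18 Polycomb group genes, which maintain silencing of developmental genes, 1 rose (5.56%) and 4 fell (22.2%, beside 12.5% over all genes tested). The falls numbered 2 without mock replicate 2, and there were 0 rises and 6 falls with length and GC offsets. Su(z)12, a subunit of the PRC2 methyltransferase, fell by 0.32. Of 11 genes for heterochromatin proteins, 0 rose and 4 fell. Su(var)205, which encodes HP1a, had 84.0, 70.6 and 82.3 CPM in LaminB KD, against 126, 128 and 112 CPM in mock (log2 fold change -0.63, SE 0.10, edgeR adjusted p 0.000346), and HP1c fell by 0.76. Of 16 cohesin and condensin genes, 4 rose and 5 fell, or 2 and 7 with length and GC offsets and 3 and 11 with total counts as library sizes. Nipped-B, the cohesin loader, had 1263, 1354 and 1473 CPM in LaminB KD, against 942, 955 and 1005 CPM in mock (log2 fold change 0.50), whereas the cohesin acetyltransferase gene eco fell by 0.29. For 20 genes of splicing, 2 rose and 4 fell (0 and 9 with the offsets, 2 and 7 with total counts), with U2af38 (-0.41) and x16 (-0.43) the largest falls.

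Genes of protein synthesis and turnover, most of them short, were called down far more often than up. Cytosolic ribosomal protein genes fell in 22 of 76 cases with 0 rises (median -0.25). RpS24 had 206, 180.5 and 165 CPM in LaminB KD, against 292, 252 and 243 CPM in mock (log2 fold change -0.51), with no overlap, and RpL37A fell by 0.54 (edgeR adjusted p 0.125 without mock replicate 2). The count of this list rested on single libraries, with 6 falls without mock replicate 1, 9 without LaminB KD replicate 3, 10 without LaminB KD replicate 2 and 11 without mock replicate 2, and with 6 falls under length and GC offsets. With total counts as library sizes it was 34. Genes of the mitochondrial ribosome showed 21 falls and 1 rise among 69 (median -0.37), 8 and 2 with the offsets, and 13 falls without mock replicate 2. mRpL14 fell by 1.09. Translation factors showed 14 falls and 1 rise among 43, with eIF3k at -0.52. Their falls numbered 7 without mock replicate 1 and 8 without LaminB KD replicate 3.

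Of 33 proteasome genes, 19 fell and 1 rose (median -0.32), but 11 fell without mock replicate 1 and 5 with length and GC offsets. Prosbeta2, a catalytic subunit of the core particle, had 35.4, 38.7 and 49.7 CPM in LaminB KD, against 71.1, 70.4 and 65.6 CPM in mock (log2 fold change -0.74, SE 0.128, edgeR adjusted p 0.000677), and Rpn9 of the lid fell by 0.66. The 1 rise was of Prosbeta2R2, a paralogue of Prosbeta2, with 11.9, 2.66 and 2.58 CPM in LaminB KD, against 2.49, 1.06 and 1.43 CPM in mock (log2 fold change 1.75, edgeR adjusted p 0.0382). Replicate 1 of LaminB KD stood apart from the other two, and without it the log2 fold change was 0.63 (edgeR adjusted p 0.389). The call was also lost without mock replicate 2 or 3. Nuclear genes of oxidative phosphorylation fell in 20 of 70 cases and rose in 2, with 12 falls without mock replicate 1 and 15 with the offsets. SdhD, a membrane anchor of complex II, fell by 1.08. ATPsynE, a subunit of ATP synthase, had 18.5, 24.9 and 27.4 CPM in LaminB KD, against 40.3, 49.2 and 42.4 CPM in mock, a log2 fold change of -0.90. In contrast, 11 of 12 genes of glycolysis were not called and 1 rose, and 14 of 15 genes of the vacuolar ATPase were not called and 1 fell. The 14 genes tested on the mitochondrial genome had a median of -0.11.

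Genes of DNA replication and the cell cycle showed 20 falls and 0 rises among 41 (median -0.22), and 15 falls with length and GC offsets. Cdk1, the kinase that drives entry into mitosis, had 35.4, 29.5 and 38.4 CPM in LaminB KD, against 47.9, 60.3 and 50.9 CPM in mock (log2 fold change -0.62, SE 0.138, edgeR adjusted p 0.00474), and aurB, the kinase of the chromosomal passenger complex, fell by 0.60 (-0.39 and not called with the offsets). Kinesins of the mitotic spindle fell as well, ncd by 0.62 and pav by 0.36, whereas the whole list of 25 myosins and kinesins had 5 rises and 7 falls (3 rises without mock replicate 1 or 2, 4 falls without mock replicate 1 or LaminB KD replicate 2). Chaperone genes showed 7 falls and 1 rise among 21. Hsp83, the fly Hsp90, had 1958, 2111 and 2223 CPM in LaminB KD, against 2903, 3063 and 2891 CPM in mock (log2 fold change -0.49, SE 0.0473, edgeR adjusted p 2.18e-06), and the constitutive Hsc70-4 fell by 0.44. The heat-inducible Hsp70Bb rose by 1.49, with 7.51 to 7.74 CPM in LaminB KD, against 1.94 to 3.77 CPM in mock. It has near-identical copies, so its reads may be left uncounted or misassigned. Of 29 genes of actin and its regulators, 2 rose (6.9%) and 5 fell (17.2%, beside 12.5% over all genes tested), or 3 without mock replicate 1. Act5C (-0.37) and the small GTPase gene Rac1 (-0.36) were among the falls.

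**Figure D4:**
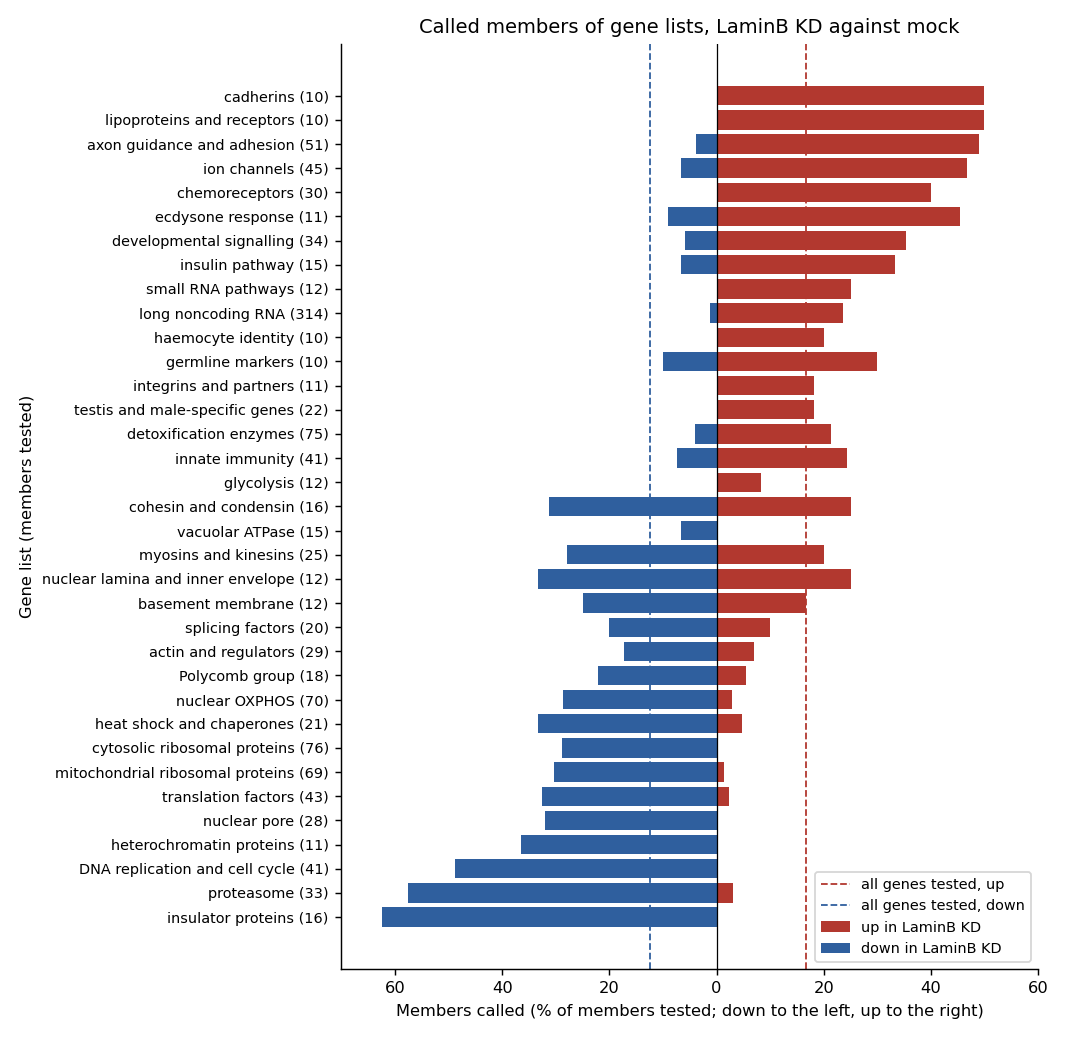
Percent of the tested members of each gene list that were called up (right) and down (left) in LaminB KD against mock, with the number tested beside each list name and dashed lines at the shares over all genes tested (16.7% up, 12.5% down). Housekeeping lists such as the proteasome (19 of 33 down, 1 up) lie on the side of falls, and lists of axon guidance (25 of 51 up, 2 down) and ion channels (21 of 45 up, 3 down) on the side of rises.

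Genes of the neuronal surface and of excitability were called up more often than all genes tested (16.7%), and many of them are long. Of 51 genes of axon guidance and adhesion, 25 rose, 2 fell and 24 were not called (median 0.43). CadN2, a neuronal cadherin, had 672, 653 and 743 CPM in LaminB KD, against 243, 229 and 288 CPM in mock (log2 fold change 1.44, SE 0.0794, edgeR adjusted p 4.12e-09). dpr2, a surface protein with immunoglobulin domains, had 2.18 to 3.03 CPM in LaminB KD, against 0 to 0.634 CPM in mock. Both overlap an annotated gene on their strand. The list had 11 rises and 6 falls with length and GC offsets, 0 falls without mock replicate 3, and 9 rises and 1 fall once genes overlapping another gene or a transposon on their strand were left out. The 10 cadherin genes tested showed 5 rises and 0 falls, and 1 rise with the offsets.

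Of 45 ion channel genes, 21 rose and 3 fell (median 0.93), with 12 rises and 4 falls under length and GC offsets, and 11 and 2 without overlapping genes. The falls numbered 1 without LaminB KD replicate 2 or 3 or mock replicate 2 or 3. ppk23, a sodium channel of pheromone-sensing neurons, had 2.02, 3.15 and 1.46 CPM in LaminB KD, against 0.377, 0 and 0 CPM in mock. Nicotinic receptor genes showed 4 rises and 1 fall among 7, but 1 rise and 1 fall without overlapping genes. nAChRalpha1, which overlaps a gene on its strand, had 168, 157 and 193 CPM in LaminB KD, against 46.7, 48.7 and 48.8 CPM in mock (log2 fold change 1.84, SE 0.104, edgeR adjusted p 5.07e-09), about the same in all libraries of a group. nAChRalpha6 rose by 0.93, and nAChRbeta3, a short gene of the same family, fell by 0.59.

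Markers of neurons moved with these lists, and their part in the rises was not tested. Of 8 tested, 5 rose and 0 fell, 3 with overlapping genes left out, and the summed level of all 16 markers was 1254 to 1309 CPM in LaminB KD, against 641 to 686 CPM in mock. The active zone genes unc-13 (946 CPM in LaminB KD, 496 CPM in mock) and brp (194 CPM in LaminB KD, 64.5 CPM in mock), named after their values were seen, made up most of that sum. nSyb, the synaptic synaptobrevin, had 1.82 to 4.81 CPM in LaminB KD, against 0 to 0.603 CPM in mock, and Gad1, which makes the transmitter GABA, had 2.91 to 6.73 CPM in LaminB KD, against 0.306 to 1.06 CPM in mock. elav, which marks all neurons, had 78.3, 86.6 and 91.7 CPM in LaminB KD, against 68.7, 69.9 and 66.1 CPM in mock, a log2 fold change of 0.32 that was 0.10 with length and GC offsets. The transmitter transporter genes VAChT and VGlut had no read in either group, and Syt1 had 8 reads in LaminB KD and 11 in mock.

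Chemoreceptor genes, low for the most part, were called up and never down. Of 238 odorant, gustatory and ionotropic receptor genes, 140 had no read, 30 were tested, 12 rose and 0 fell (median 0.73), and 11 rose with length and GC offsets. Without the expression filter 11 rose and 0 fell, with a median of 0.38. The summed level was 653 to 718 CPM in LaminB KD, against 437 to 445 CPM in mock, with no overlap between groups. Or23a had 3.47, 1.21 and 1.57 CPM in LaminB KD, against 0.377, 0 and 0.204 CPM in mock, and Gr93b had 2.24, 1.57 and 1.23 CPM in LaminB KD, against 0.226, 0.211 and 0.102 CPM in mock. Such low genes rest on a few reads in mock. The 6 genes tested of the Hox and segmentation group showed 3 rises and 0 falls at low levels, with 1 rise without LaminB KD replicate 2 or mock replicate 1. hh, the Hedgehog ligand, had 2.91, 8.84 and 6.28 CPM in LaminB KD, against 1.06, 2.75 and 0 CPM in mock, and inv, a homeobox gene, had 1.68 to 4.36 CPM in LaminB KD, against 0 to 1.12 CPM in mock. The call of hh was lost without LaminB KD replicate 2 or 3 or mock replicate 1 or 3, and that of inv without LaminB KD replicate 2 or mock replicate 1 or 2 (edgeR adjusted p up to 0.187 for hh and 0.156 for inv).

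Developmental signalling genes showed 12 rises and 2 falls among 34 (median 0.26), but 6 rises and 9 falls with length and GC offsets, and 6 rises once overlapping genes were left out. bnl, the FGF ligand that guides tracheal branches, had 869, 927 and 971 CPM in LaminB KD, against 275, 289 and 280.3 CPM in mock (log2 fold change 1.71, SE 0.0576, edgeR adjusted p 7.81e-12). The lowest LaminB KD library was about 3 times the highest mock library. pyr, a ligand for another FGF receptor, had 5.26, 3.15 and 4.04 CPM in LaminB KD, against 1.36, 0.423 and 2.34 CPM in mock (log2 fold change 1.58, edgeR adjusted p 0.0577), a call lost without LaminB KD replicate 1 or 3 or mock replicate 1 or 2 (edgeR adjusted p 0.102 to 0.165). Among members named after their values were seen, Dad, an inhibitor of BMP signalling, rose by 0.95, and rho, the protease that releases EGF ligands, rose by 1.09, with 64.8, 59.0 and 55.4 CPM in LaminB KD, against 23, 29.7 and 31.7 CPM in mock.

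Of 11 genes of the ecdysone response, by which the steroid hormone times moulting and metamorphosis, 5 rose and 1 fell. Eip78C, an ecdysone-induced nuclear receptor, had 578, 598 and 597 CPM in LaminB KD, against 275, 258 and 298 CPM in mock (log2 fold change 1.09, SE 0.0656, edgeR adjusted p 8.79e-09). EcR, the receptor itself, had 864, 900.0 and 883 CPM in LaminB KD, against 653, 589.9 and 690.2 CPM in mock, a log2 fold change of 0.45 that was 0.03 with length and GC offsets. br, a zinc finger factor of the same cascade, fell by 0.22 (edgeR adjusted p 0.0642), and was not called without LaminB KD replicate 2 or 3 or mock replicate 1 or 2 (edgeR adjusted p 0.127 to 0.207). The list had 1 rise and 4 falls with length and GC offsets, 3 rises and 0 falls without mock replicate 2, and 0 rises once overlapping genes were left out, since all 5 genes that rose overlap another gene or a transposon on their strand.

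In the insulin pathway, 5 of 15 genes rose and 1 fell, with 4 and 3 under the offsets, and 3 rises without mock replicate 2. ImpL2, a secreted protein that binds insulin-like peptides, had 399, 327 and 329 CPM in LaminB KD, against 196, 204 and 187 CPM in mock (log2 fold change 0.84, SE 0.0832, edgeR adjusted p 3.09e-06). Thor, the translation repressor 4E-BP, rose by 1.11, with 6.05, 13.7 and 7.85 CPM in LaminB KD, against 4.68, 4.65 and 3.36 CPM in mock, and lost the call without LaminB KD replicate 2 (edgeR adjusted p 0.221) or mock replicate 3 (edgeR adjusted p 0.135). The JAK-STAT pathway, which has cytokine ligands of the Unpaired family, had 3 rises and 2 falls among 9, with 1 rise without mock replicate 2, and 2 rises and 3 falls with the offsets. Socs36E, its feedback inhibitor, had 794, 728 and 747 CPM in LaminB KD, against 485, 491 and 511 CPM in mock (log2 fold change 0.61, SE 0.0564, edgeR adjusted p 1.48e-06). The ligand upd3 rose by 0.38, and dome, the receptor, fell by 0.30. The call of upd3 was lost without LaminB KD replicate 3 (edgeR adjusted p 0.12) or mock replicate 2 (0.102), and that of dome without LaminB KD replicate 1 (0.107).

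Innate immunity genes rose in 10 of 41 cases and fell in 3, with 7 and 2 under the offsets, 0 falls without LaminB KD replicate 2 or mock replicate 2, and 1 fall without mock replicate 1. Tep5Psi, a pseudogene of the thioester protein family, had 5.04, 6.90 and 6.62 CPM in LaminB KD, against 0.754, 0.211 and 0.611 CPM in mock (log2 fold change 3.49, SE 0.585, edgeR adjusted p 0.00052). Tep4 of the same family, named after its values were seen, had 402, 375 and 405 CPM in LaminB KD, against 141, 148 and 134 CPM in mock, a log2 fold change of 1.48. From the Toll pathway, the transcription factor gene dl rose by 0.82 and its inhibitor cact by 0.56, whereas the kinase gene pll fell by 0.39, all also named after their values were seen. The call of pll was lost under all single libraries left out other than mock replicate 1 (edgeR adjusted p 0.109 to 0.277) and with length and GC offsets. The summed level of all 77 listed genes was 2459 to 2592 CPM in LaminB KD, against 1878 to 1987 CPM in mock.

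Haemocyte genes, which bear on the identity of the line, were called up in 20% of cases, beside 16.7% over all genes tested. Of 10 tested, 2 rose and 0 fell: ush, a partner of GATA factors, had 2521, 2593 and 2562 CPM in LaminB KD, against 2049.9, 2007 and 2129 CPM in mock (log2 fold change 0.31), and srp, the GATA factor of blood cells, had 2330.3, 2222 and 2203 CPM in LaminB KD, against 2088, 2002 and 1994 CPM in mock (log2 fold change 0.15). With length and GC offsets both turned to -0.07. Hml (0.13) and Pxn (-0.04), a clotting factor and a matrix peroxidase, were not called. Basement membrane genes had 2 rises (16.7%, as over all genes tested) and 3 falls (25%, beside 12.5%) among 12. The falls rested on single libraries, with 0 without LaminB KD replicate 3 or mock replicate 1 and 1 without LaminB KD replicate 2. The rises were the collagen IV chains, which are transcribed from neighbouring genes facing away from each other. Col4a1 had 48.7, 53.4 and 50.5 CPM in LaminB KD, against 31.7, 23.7 and 24.8 CPM in mock (log2 fold change 0.92), and vkg had 30.9, 25.1 and 20.8 CPM in LaminB KD, against 17.5, 11.1 and 11.3 CPM in mock (log2 fold change 0.93).

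Lipoproteins and their receptors showed 5 rises and 0 falls among 10, and 2 rises with the offsets. mgl, the fly megalin, had 11.2, 13.6 and 15 CPM in LaminB KD, against 4.83, 5.60 and 4.38 CPM in mock (log2 fold change 1.43), and Apoltp, which encodes the lipid transfer particle, rose by 0.69. Detoxification enzymes, the cytochromes P450, glutathione transferases and related families, rose in 16 of 75 cases and fell in 3, with 10 rises without mock replicate 1, 5 falls without LaminB KD replicate 1, and 17 rises with the offsets. The 16 rises are 21.3% of the list, beside 16.7% over all genes tested. GstD6 had 3.47, 1.33 and 4.26 CPM in LaminB KD, against 0.453, 0.740 and 1.12 CPM in mock, and was not called without LaminB KD replicate 3 (edgeR adjusted p 0.107) or mock replicate 1 (0.117).

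Markers of other tissues were low or not called for the most part. Of 8 muscle genes tested, 2 rose and 1 fell, and the giant sarcomere gene sls had 11.2, 20.5 and 13.9 CPM in LaminB KD, against 8.22, 6.55 and 6.01 CPM in mock. Mhc, the myosin of muscle, had 74 reads in LaminB KD and 93 in mock. The summed level was 3.58 to 7.29 CPM in LaminB KD, against 4.54 to 6.93 CPM in mock, for fat body markers, and 5.82 to 15.9 CPM in LaminB KD, against 5.60 to 8.07 CPM in mock, for gut enzymes. Germline markers showed 3 rises and 1 fall among 10. Among 68 testis and male-specific genes, 32 had no read, 22 were tested, 4 rose (18.2%, beside 16.7% over all genes tested, and 2 without mock replicate 2) and 0 fell, and the summed level was 305 to 332 CPM in LaminB KD, against 273 to 285 CPM in mock. S-Lap5, an aminopeptidase of sperm, had 6.16, 6.54 and 6.62 CPM in LaminB KD, against 2.79, 2.01 and 2.65 CPM in mock (log2 fold change 1.37, edgeR adjusted p 0.0131).

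Long noncoding RNA genes rose in 74 of 314 cases and fell in 4 (median 0.49), and in 70 and 5 with length and GC offsets. Low genes can pass the expression filter through the libraries of a single group, which bears on this median. Without the filter 76 rose and 7 fell, with a median of 0.073. The falls numbered 7 without LaminB KD replicate 1 or 2 and 8 without LaminB KD replicate 3 or mock replicate 3. Their summed level was 9362 to 9871 CPM in LaminB KD, against 6483 to 6994 CPM in mock. lncRNA:CR42790 had 3.13, 1.09 and 1.91 CPM in LaminB KD, against 0.302, 0.106 and 0 CPM in mock. The Arc genes, whose proteins form capsids related to those of retroelements, both rose. Arc1 had 1077, 1052 and 1072 CPM in LaminB KD, against 654, 617 and 533 CPM in mock (log2 fold change 0.83), and Arc2 had 68.2, 63.1 and 63.5 CPM in LaminB KD, against 34.6, 38.8 and 38.4 CPM in mock (log2 fold change 0.80). Of 12 genes of small RNA pathways, 3 rose and 0 fell (2 and 2 without LaminB KD replicate 2), among them the Argonaute gene AGO2 (0.34) and the endonuclease gene Dcr-2 (0.43). AGO2 had 371, 421 and 386 CPM in LaminB KD, against 301, 323 and 308 CPM in mock. Among germline factors of the piRNA pathway, the helicase gene spn-E rose by 0.44 and armi fell by 0.32.

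Silent genes were taken as those with at most 5 reads in all over the 5 mock libraries of experiments 2 and 3, which take no part in the comparison. They numbered 7577. Their summed level was 454, 431 and 420 CPM in LaminB KD, against 195, 202 and 214 CPM in mock, a ratio of group means of 2.14. All 3 LaminB KD libraries were above all 3 mock libraries, and the same held for the 6552 genes with no read in those 5 libraries, with 224, 232 and 219 CPM in LaminB KD, against 100.3, 107 and 101 CPM in mock. The gain was in reads per gene more than in the number of genes with a read, which was 379, 714 and 776 in LaminB KD and 1094, 411 and 474 in mock. At an equal depth of 8330072 reads these numbers were 377, 714 and 766 in LaminB KD and 873, 404 and 459 in mock, so that the highest and the lowest library of the 6 were mock replicate 1 and LaminB KD replicate 1. Genes with at least 10 reads over a group numbered 381 in LaminB KD and 147 in mock.

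Most of the 7577 silent genes, 5470, had no read in the 6 libraries. Of the 7577, 45 had every LaminB KD library above every mock library and 17 had every LaminB KD library below. Over all 8142 genes tested the groups did not overlap for 37.2%, a share unlike these counts because most silent genes had no read. The expression filter passed 24 of the silent genes, of which 4 were called up and 0 down, beside 16.7% and 12.5% over all genes tested. Genes with a read in all 3 LaminB KD libraries and none in mock numbered 11, and 12 showed the reverse. When ranked by their lowest LaminB KD library, the first was PIP5K59B, a phosphoinositide kinase gene on 2R with 17, 26 and 19 reads in LaminB KD and 3, 1 and 1 in mock. CG31464 had 13, 15 and 14 reads in LaminB KD and 0, 0 and 2 in mock, CG10598 had 21, 16 and 11 against 1, 0 and 0 in mock, and ect had 23, 10 and 16 reads in LaminB KD against 3, 0 and 2 in mock. For these 4 genes the groups were far apart, but the ranking used the LaminB KD libraries, which favours such a gap. The other 4 of the first 8 overlapped between groups: CecA2, an antibacterial cecropin, had 26, 15 and 16 reads in LaminB KD and 23, 12 and 20 in mock, and Tmtc2, E(spl)m2-BFM and tRNA:Ile-TAT-1-1 also had at least 1 mock library above a LaminB KD library in CPM. These are given as a description, with no test.

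**Figure D5:**
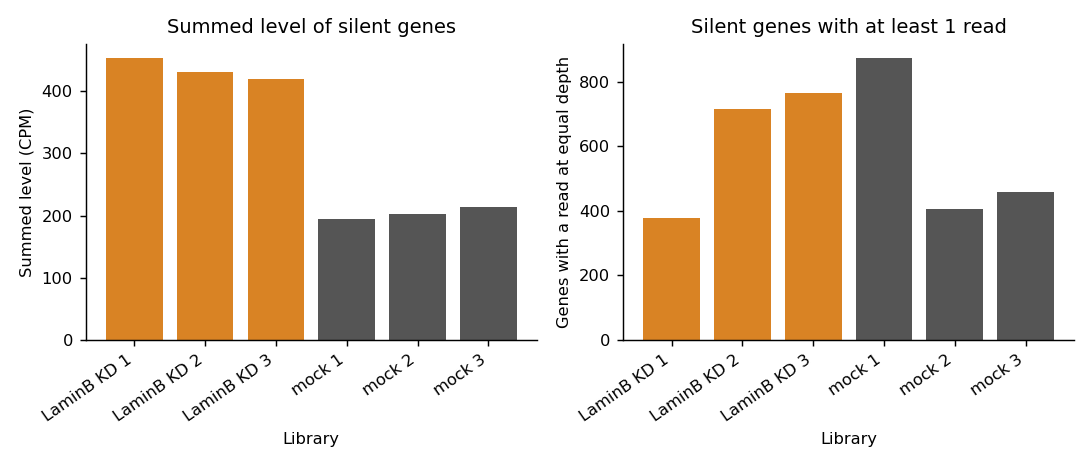
Summed level in CPM (left) and number of genes with at least 1 read at a depth of 8330072 reads (right) of the 7577 silent genes in each library, LaminB KD left of mock. The summed level is 420 to 454 CPM in LaminB KD, against 195 to 214 CPM in mock, whereas the numbers of genes overlap.

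Some genes called in the same direction lay side by side among the genes tested, for which no expected number was computed. Among the genes called up, 61 runs of at least 3 genes held 212 genes. The longest held 8 genes near the centromere of 2R, from Maf1 to dpr21, and the next 7 genes on 3R from 11975156 to 12003516, with mfas and Ect3 among them. A run of 5 genes on X included nAChRalpha7 and kek5. Among the genes called down, 23 runs of at least 3 held 74 genes, the longest of 4 genes.

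To see where LaminB KD differed from the other knockdowns, its effects were set beside those of AGO2 KD, made with siRNA in the same experiment against the same mock libraries, and of Dcr-2 KD, made with dsRNA in experiment 3 against its own mock libraries. LaminB KD libraries were higher than AGO2 KD libraries at 10.2% of 8142 genes and lower at 10.1%. The effect of LaminB KD was higher than that of Dcr-2 KD at 8.51% of 8377 genes and lower at 5.01%, or 420 genes, which became 230, 232 and 254 genes without mock replicate 1, 2 or 10. In nascent RNA, the targets of the other knockdowns fell less in their own knockdown than Lam did. AGO2 had a log2 fold change of -0.47 (SE 0.0686) in AGO2 KD, and Dcr-2 had -0.53 (SE 0.122) in Dcr-2 KD. These are levels of nascent RNA and do not measure the loss of protein, which the authors checked by Western blotting. Whether the depth of each knockdown bears on the differences below was not tested. Lam had log2 fold changes of -1.63 in LaminB KD, -0.04 in AGO2 KD and -0.07 in Dcr-2 KD. bnl had 1.71, 0.67 and 0.12 in the same order, and the difference between LaminB KD and AGO2 KD was 1.04, with an SE of 0.0564 (edgeR adjusted p 8.54e-09) and that between the effects of LaminB KD and Dcr-2 KD was 1.59, with an SE of 0.0979 (edgeR adjusted p 9.26e-10). CadN2 showed the same order, with 1.44 in LaminB KD, 0.51 in AGO2 KD and 0.33 in Dcr-2 KD, and so did nAChRalpha1, with 1.84, 0.66 and -0.23. bnl, CadN2 and nAChRalpha1 were picked with their rises in LaminB KD known, which favours that order. Of the 10 largest rises, CG30484 (2.82, 2.50 in AGO2 KD), CG30485 (3.10, 2.44) and Or19b (2.82, 1.71) were not called as different from AGO2 KD (edgeR adjusted p 0.433, 0.184 and 0.213). The others of the 10 were called as higher in LaminB KD. All 10 were chosen by their rise in these LaminB KD libraries, which favours that result.

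upd3 and Socs36E had another order. The log2 fold change of upd3 was a log2 fold change of 0.38 in LaminB KD, 1.52 in AGO2 KD and 0.95 in Dcr-2 KD, and LaminB KD differed from AGO2 KD by -1.15, with an SE of 0.109 (edgeR adjusted p 4.07e-06). Socs36E had 0.61 in LaminB KD, 1.05 in AGO2 KD and 0.60 in Dcr-2 KD, and the effects of LaminB KD and Dcr-2 KD differed by 0.0029 (SE 0.101, edgeR adjusted p 0.993). Hsp83 fell in LaminB KD (-0.49) and, by less, in AGO2 KD (-0.26, edgeR adjusted p 0.00195; difference from LaminB KD, edgeR adjusted p 0.00364). It had -0.48 in Dcr-2 KD, and the effects of the dsRNA knockdowns differed by -0.02 (SE 0.128, edgeR adjusted p 0.950). Act5C had -0.37 in LaminB KD and 0.13 in Dcr-2 KD, a difference of -0.50 (edgeR adjusted p 0.000338). The collagen genes separated LaminB KD from AGO2 KD, with 0.92 in LaminB KD and -0.11 in AGO2 KD for Col4a1, and 0.93 in LaminB KD and -0.18 in AGO2 KD for vkg. The adjusted p-values of these differences were 0.000436 for Col4a1 and 0.00668 for vkg (edgeR). LamC rose in all 3 knockdowns, by 0.90 in LaminB KD, 0.56 in AGO2 KD and 0.42 in Dcr-2 KD. LaminB KD differed from AGO2 KD by 0.34 (edgeR adjusted p 0.0920), and its effect from that of Dcr-2 KD by 0.48 (edgeR adjusted p 0.0563).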

How the data were processed

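Nascent RNA of Kc167 cells labelled with EU was captured and sequenced as stranded libraries. The authors trimmed reads with cutadapt 1.10, mapped them to dm6 with HISAT2 2.0.4 and assigned them to gene bodies, introns included, on the matching strand with featureCounts 1.5.0-p3 (versions from the submitters' processing notes). The authors deposited these raw counts without scaling. Without molecular identifiers, PCR copies of 1 molecule count as separate reads. Reads of genes that overlap on a strand, or of near-identical copies, can be left uncounted or misassigned. The design text calls replicates biological, but nothing ties them to separate cultures, and if they share one the p-values measure technical spread.

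The 9 libraries of experiment 1 (LaminB KD, AGO2 KD and mock, 3 each, sharing 1 estimate of spread) were fitted by treatment alone in edgeR 4.0.16 (R 4.3.3) after filterByExpr and TMM normalisation, and tested with the quasi-likelihood F test. Genes with a Benjamini-Hochberg adjusted p under 0.1 over all genes tested were called. SEs of log2 fold changes were taken as the absolute change over the root of F. Dcr-2 KD was compared through an interaction contrast with its own mock libraries. Symbols were found for 17464 of 17659 genes. Lists were described by counts and medians, with no test. On simulated data holding 200 genes with a 2-fold change, edgeR recovered 81.0% among 7999 genes, with 11.5% of calls false, and the interaction contrast recovered 60.5% among 8158 genes, with 16.6% false. The simulation held fewer changes than were called in the data, all of 2-fold and with no trend on length or GC content. Most calls in the data were of smaller changes, so these shares need not hold for them.

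Named genes were Lam, RpL32, the 10 largest rises and falls among called genes (mean of 5 CPM or more, groups not overlapping), up to 2 rises and 2 falls of each of 52 lists, members of lists of at most 12 genes, and the 8 silent genes with the highest lowest LaminB KD library. Others are stated to be named after their values were seen. The members, lists and tests were chosen with earlier results of these data known. Alternatives were DESeq2 1.42.0, RLE or total-count scaling, no filter, only the 6 libraries, a replicate block, length and GC offsets, an adjusted p under 0.05, each library left out and, added after seeing the data, genes overlapping another gene or transposon left out. The other libraries of the series were used only to define silent genes or not used here. Replicate numbers did not pair the libraries (correlations of same-numbered deviations -0.025, -0.0099 and -0.010).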

Additional observations from a re-analysis of the deposited data

How the results depend on the processing

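Of the 117 named genes with a fold change, 109 were called, and 23 of these lost the call under at least 1 alternative, 16 of them when a library was left out and 11 with length and GC offsets. DESeq2, among the genes to which it gave an adjusted p, ended no call of a named gene, and the replicate block ended those of CG12535 (-1.24) and pll (-0.38). When 1 library was left out CG12535 ranged from -3.0658 to 0.3143, the last without mock replicate 3. The genes that lost a call most often were low or changed little (pll, M1BP, hh, inv, pyr, br). With length and GC offsets klar turned to -0.2141, ush to -0.0692, srp to -0.0738 and Sxl to -0.0368, and with the replicate block added to -0.2143, -0.0693, -0.0738 and -0.0363 in the same order, and of these klar alone was still called, now as lower. Length and GC offsets with the replicate block left 831 genes up and 896 down. Without genes that overlap another gene or transposon on their strand, 872 were up and 870 down. With the replicate block alone 1280 were up and 987 down, and DESeq2 called 1452 up and 923 down. Leaving out 1 library at a time gave 1065 to 1349 genes up and 702 to 1054 down. Effects higher in LaminB KD than in Dcr-2 KD then numbered 499 to 760 (713 with all libraries), and lower ones 230 to 463 (420 with all libraries), with 230 without mock replicate 1, 232 without mock replicate 2 and 254 without mock replicate 10 of experiment 3. The summed level of silent genes was 2.14 times that of mock, 2.19 times when no read was allowed and 2.07 times with total counts. The causes of these shifts were not tested. At 8330072 reads or more per library, genes under about 1 CPM rested on a few reads, and in the lowest of 5 level bins 1.53% of genes were called down against 17.1% called up. Genes of that bin can pass the expression filter through the libraries of a single group.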
